A study of Mus musculus with 14 samples.

Results

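The 37 cell cycle and DNA replication genes described here are cyclins, cyclin-dependent kinases and their inhibitors, Rb and E2F genes, replication genes and mitosis genes of the mouse. They were chosen by symbol from a list of known roles and not by a cutoff on measured values. Earlier results of these data were known when the choice was made. All 37 were found among the 23337 genes of the deposited count table, and 28 of them had enough reads for the test across all genes.

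Poly(A) RNA was sequenced from cardiomyocytes of 4-week-old Rosa-Cas9GFP mice, so that both groups carry Cas9 and GFP, placed by their name at the Rosa locus. On postnatal day 1 the mice received an adeno-associated virus (AAV). The virus was AAV-Ryr2gRNA in 7 samples (the gRNA group) and AAV-Cre, named for the Cre recombinase, in 7 samples (the control group). Ryr2 encodes the calcium release channel of the cardiac sarcoplasmic reticulum. Cells were released by perfusing the heart through the aorta (Langendorff isolation) and were sorted by flow cytometry. The labels do not say whether the guide virus had Cre too, which promoters drove the transgenes or by which marker cells were sorted, and any effect of Cre itself cannot be told apart from that of the guide. Nor do they tie each sample to its own animal, and the p-values below therefore reflect sample-to-sample spread only, part of which can be technical.

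A dividing cell starts a round of the cycle when D cyclins bind Cdk4 or Cdk6 and phosphorylate the retinoblastoma protein Rb1, which then releases E2F transcription factors. Cyclin E and cyclin A with Cdk2 carry the cell through DNA replication, for which the Mcm helicase is loaded at origins and ribonucleotide reductase supplies deoxynucleotides. Cyclin B with Cdk1, the Aurora and Polo kinases and the kinetochore proteins then drive mitosis. Mouse cardiomyocytes mostly leave this cycle in the days after birth, with a last round of DNA synthesis that often ends without cell division, so most of these genes are known to be low in the juvenile heart.

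The libraries held 5689335 to 13165662 counted reads each. The targeted gene Ryr2 ran from 602 to 763 CPM (read counts scaled to library size) in the controls and from 225 to 371 CPM in the gRNA libraries, without overlap (log2 fold change -1.13, SE 0.0977, edgeR quasi-likelihood adjusted p = 3.3e-07; two-sided exact permutation p = 0.00058). Among the 11170 genes tested, the gRNA group was higher for 1621 and lower for 1528, and with scaling by library totals alone the counts were 3064 and 852. That scaling moved the median log2 fold change of all tested genes from 0.01 to 0.15. The 4 libraries numbered 7 to 10 in the order of the samples are replicates 4 and 5 of each group. They stood apart on the second principal component, which held 25.0% of the variance. Below it is stated where fits within or without these 4 libraries changed the call of a member or a named pathway gene.

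Among the 28 members tested, 3 rose in the gRNA group (Ccnd2, Mcm4 and Rrm1), 2 fell (Cenpf and Cdk2) and 23 were not called. A call means an edgeR quasi-likelihood p, Benjamini-Hochberg adjusted over all 11170 genes, under 0.05. Of all tested genes 28.2% were called, 14.5% as higher and 13.7% as lower. The members' share of 17.9% was thus below that of all genes. Their median log2 fold change (gRNA minus control) was -0.03, beside 0.01 over all tested genes. Of the tested genes with a mean between 2 and 4 on the log2 CPM scale, where 16 of the members lay, 19.4% were called. The groups did not overlap for Ccnd2, Cdk2 and Cenpf, and for 10.5% of all tested genes.

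**Figure D1:**
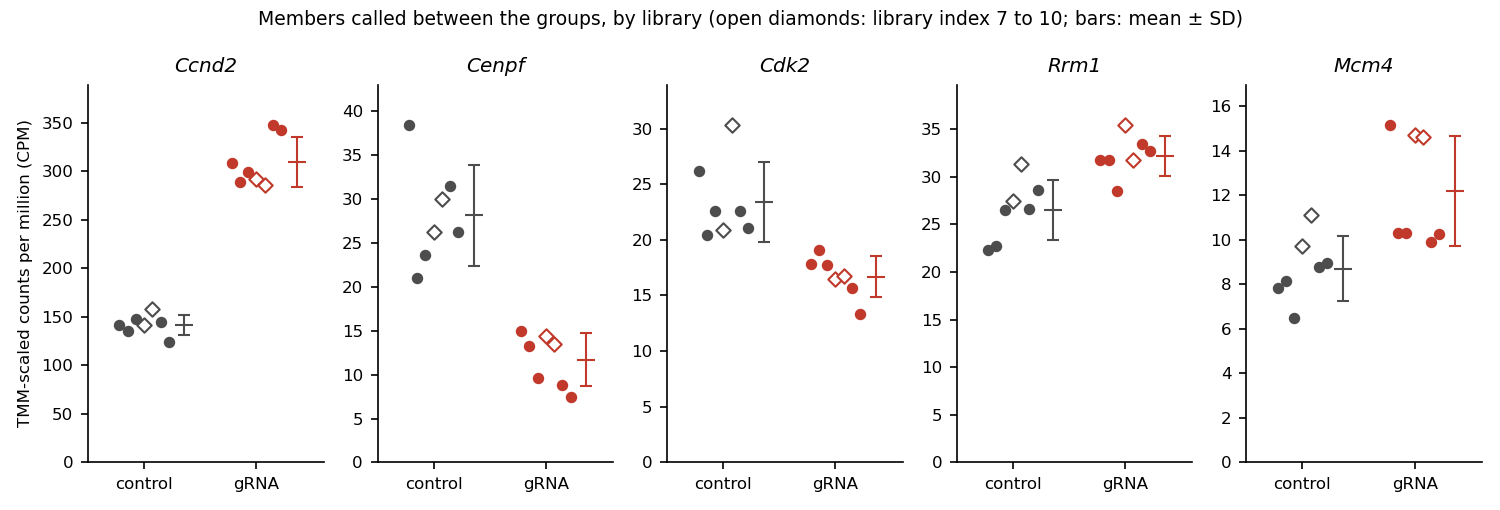
Scaled CPM of the 5 called members in each of the 14 libraries, with one panel per gene, controls on the left and gRNA libraries on the right. Points are libraries, open diamonds are libraries 7 to 10, and bars are means with SD on axes that start at 0. Ccnd2, Cenpf and Cdk2 show no overlap between the groups, and Mcm4 and Rrm1 do.

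**Figure D2:**
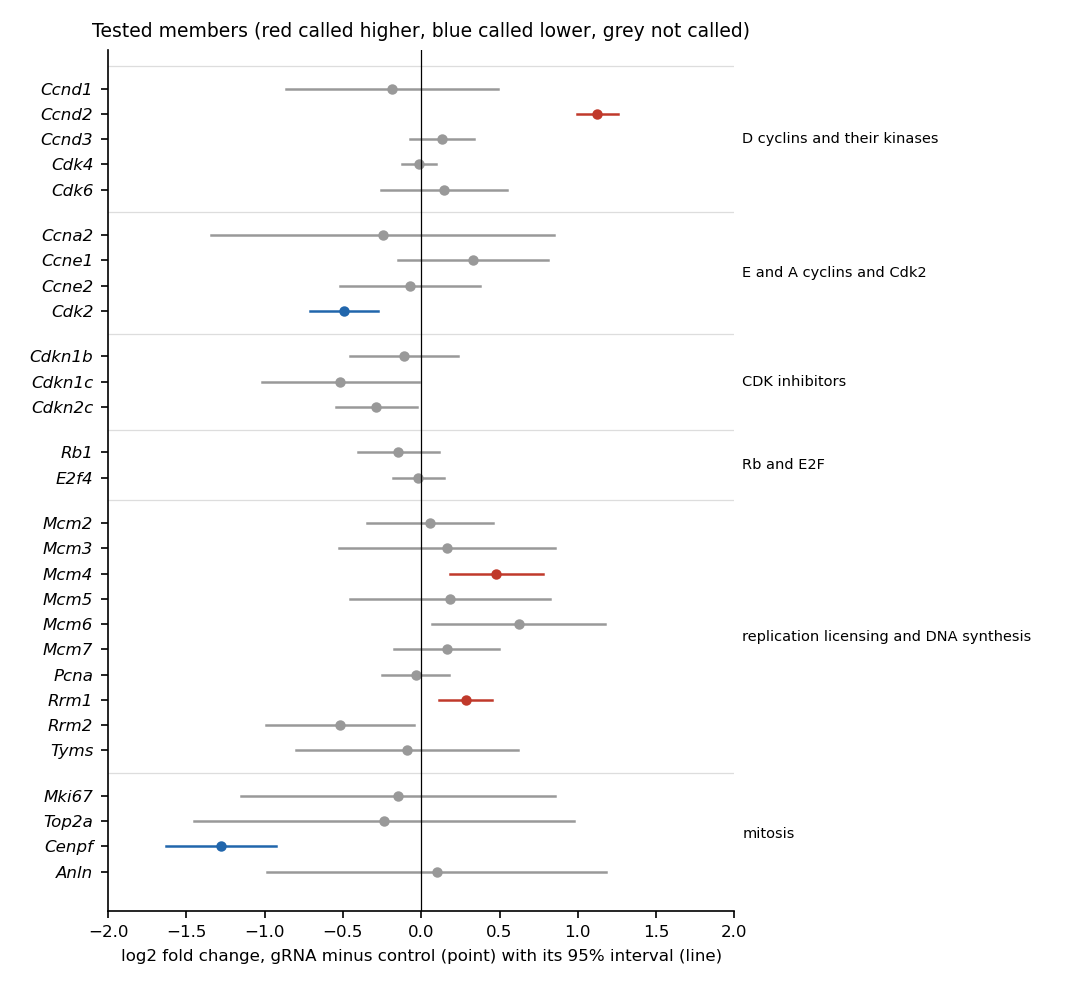
Log2 fold change (gRNA minus control) of each of the 28 tested members with its 95% interval, ordered by role. Called members are in colour (red higher, blue lower), with Ccnd2 at 1.13 and Cenpf at -1.28 as the ends of the range.

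In dividing cells many of these genes are switched on together through E2F, NF-Y and CHR sites, so promoter sequences of the members were searched for those letters. The 250 bases before the annotated start were taken from RefSeq (build GRCm38.p6, the assembly that mm10 names), which had 31 promoters for 28 of the 37 members. The windows shown, 5′ to 3′ on the gene's strand, are those of Cenpf, Cdk2 and Rrm1 because these genes were called, and of Top2a as a mitosis gene that was not. The called members Ccnd2 and Mcm4 had no promoter in that source. Capitals mark CCAAT (the letters NF-Y binds), TTTGAA (the cell cycle homology region, CHR) and the E2F letters TTNNCGC with C or G at each N, all searched on both strands. No match overlaps another in the windows shown.
Cenpf (chr1:189688087-189688336, minus strand): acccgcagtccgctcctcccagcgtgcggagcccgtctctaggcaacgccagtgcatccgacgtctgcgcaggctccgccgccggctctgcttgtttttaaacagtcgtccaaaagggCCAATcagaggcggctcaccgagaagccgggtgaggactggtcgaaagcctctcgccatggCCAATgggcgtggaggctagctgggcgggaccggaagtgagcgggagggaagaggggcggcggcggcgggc
Top2a (chr11:99024190-99024439, minus strand): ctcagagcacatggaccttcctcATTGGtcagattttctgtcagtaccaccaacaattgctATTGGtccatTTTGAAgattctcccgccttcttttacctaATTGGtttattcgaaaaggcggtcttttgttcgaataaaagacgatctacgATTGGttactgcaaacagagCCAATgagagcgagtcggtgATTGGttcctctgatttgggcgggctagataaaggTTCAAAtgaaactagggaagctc
Cdk2 (chr10:128705052-128705301, minus strand): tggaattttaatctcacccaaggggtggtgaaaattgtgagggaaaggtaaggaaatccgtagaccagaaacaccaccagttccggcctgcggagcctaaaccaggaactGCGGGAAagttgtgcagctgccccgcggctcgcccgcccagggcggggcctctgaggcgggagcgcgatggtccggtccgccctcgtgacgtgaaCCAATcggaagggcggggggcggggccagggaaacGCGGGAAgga
Rrm1 (chr7:102441445-102441694, plus strand): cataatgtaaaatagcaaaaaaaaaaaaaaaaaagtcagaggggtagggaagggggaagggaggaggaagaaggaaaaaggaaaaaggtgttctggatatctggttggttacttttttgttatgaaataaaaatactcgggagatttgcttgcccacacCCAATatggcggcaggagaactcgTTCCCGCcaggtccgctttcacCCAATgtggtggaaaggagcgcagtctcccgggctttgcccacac

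The Cenpf window held 2 CCAAT matches and no CHR or E2F match. The Top2a window held 6 CCAAT and 2 CHR matches. The Cdk2 window held 1 CCAAT match and 2 E2F matches, and the Rrm1 window held 2 CCAAT matches and 1 E2F match. CCAAT was found in 21 of the 31 member promoters (67.7%) and in 33.8% of all 32851 promoters of the same length. The E2F letters were found in 11 of the 31 (35.5%) and in 7.89% of all promoters. TTTGAA was as frequent in the member promoters (16.1%) as in all promoters (15.99%), and 4 of its 5 matching member promoters belonged to mitosis genes. These matches describe the letters only, and the RNA data do not measure what binds there.

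Ccnd2 encodes cyclin D2, an activator of Cdk4 and Cdk6 (mm10 chr6:127125709-127151048, minus strand). Its control libraries ran from 124 to 158 CPM with a median of 142, and its gRNA libraries from 286 to 348 CPM with a median of 299. Every gRNA library lay above every control. Its mean rose from 142 ± 10.3 to 309 ± 25.7 CPM (SD, n = 7 per group), a log2 fold change of 1.13 (SE 0.0632, 95% interval 0.99 to 1.26, edgeR adjusted p = 2.4e-09). Of all 11170 tested genes it had rank 12 by p-value. In bulk samples such as these, a change in the number of cells that express a gene and a change in RNA per cell cannot be told apart.

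The other D cyclins gave smaller differences, and neither was called. Ccnd3, cyclin D3, ran from 55.8 to 93.7 CPM in the controls (median 73.3) and from 74.0 to 94.0 CPM in the gRNA libraries (median 79.7). These ranges overlap, and the log2 fold change was 0.13 (95% interval -0.07 to 0.34, edgeR adjusted p = 0.35). Ccnd1, cyclin D1, was low, with means of 6.15 ± 2.34 and 5.45 ± 3.13 CPM and a log2 fold change of -0.19 (95% interval -0.86 to 0.49).

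Levels per exonic length put the 3 D cyclins on one scale. Ccnd2 made up 41.7 ± 3.99% of the summed D cyclin CPM per kb in controls and 58.6 ± 2.84% with the guide (SD, n = 7 per group). The ranges over libraries were 36.8% to 47.2% and 53.4% to 61.5%, so they did not overlap. Ccnd3 held 55.6 ± 4.04% in controls and 39.8 ± 2.23% with the guide, which reverses the order of the 2 genes. The summed D cyclin level was 59.3 ± 6.97 CPM per kb in controls and 91.3 ± 5.69 CPM per kb with the guide. These shares contain the called change of Ccnd2 and are a description of it.

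The kinases that D cyclins activate were not called. Cdk4 had the highest control level per length of the 37 genes, 43.0 CPM per kb. Its means were 57.9 ± 3.08 and 57.3 ± 2.09 CPM, with a log2 fold change of -0.02 and a narrow 95% interval of -0.12 to 0.09. Cdk6 was low at 4.43 ± 1.02 and 4.97 ± 1.32 CPM (log2 fold change 0.15, 95% interval -0.25 to 0.55). Of the summed Cdk4 and Cdk6 level per kb, Cdk4 made up 96.0% in controls and 95.5% with the guide.

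Cdk2, the kinase of cyclins E and A (chr10:128697939-128705051, minus strand), fell in the gRNA group. It ran from 20.4 to 30.3 CPM in the controls (median 22.5) and from 13.3 to 19.1 CPM in the gRNA libraries (median 16.8). Every gRNA library lay below every control. Its mean fell from 23.4 ± 3.60 to 16.7 ± 1.84 CPM, a log2 fold change of -0.49 (SE 0.103, 95% interval -0.71 to -0.27, edgeR adjusted p = 0.0017). Within the 4 libraries numbered 7 to 10 alone the value was -0.66 with an adjusted p of 0.051.

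The cyclin partners of Cdk2 were at the lower edge of what was measured and were not called. Ccne1 (cyclin E1) had means of 1.69 ± 0.526 and 2.11 ± 0.516 CPM, with a log2 fold change of 0.33 (95% interval -0.15 to 0.81). Ccne2 (cyclin E2) had 2.70 ± 0.682 and 2.57 ± 0.711 CPM and a log2 fold change of -0.07 (95% interval -0.52 to 0.38). Ccna2 (cyclin A2) had 2.45 ± 2.27 and 2.07 ± 1.13 CPM and a log2 fold change of -0.25, with an interval from -1.34 to 0.85 that spans large changes both ways. Exons of Ccne2 overlap those of Ints8 on the other strand over 53.9% of their length, those of Ccna2 overlap Exosc9 over 13.4%, and those of Ccnd3 overlap Bysl over 15.8%. The library kit does not mark strand, so reads in those stretches cannot be assigned to one of the genes.

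None of the 3 inhibitors of cyclin-dependent kinases among the members was called. Cdkn1c (Kip2), which restrains proliferation in the embryo, ran from 7.32 to 12.4 CPM in the controls (median 9.49) and from 3.73 to 12.03 CPM in the gRNA libraries (median 5.53). The groups overlapped, with a log2 fold change of -0.52 (95% interval -1.02 to -0.02, edgeR adjusted p = 0.12). In the 10 libraries outside numbers 7 to 10 it was -0.81 (adjusted p = 0.015), in those 4 libraries it was -0.05 (adjusted p = 0.93), and without gRNA replicate 4 it was -0.69 (adjusted p = 0.026). Cdkn2c, an inhibitor of Cdk4 and Cdk6, had 7.85 ± 0.994 and 6.43 ± 0.922 CPM, with a log2 fold change of -0.29 (95% interval -0.54 to -0.03, adjusted p = 0.093). Without control replicate 7, its lowest control, the adjusted p was 0.040 and the log2 fold change -0.34. Cdkn1b (Kip1) had 4.40 ± 0.828 and 4.03 ± 0.790 CPM, with a log2 fold change of -0.11 (95% interval -0.46 to 0.24) that became 0.02 with scaling by library totals alone.

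Cdkn1a, best known as a p53 target, is not one of the 37 genes but is also an inhibitor of cyclin-dependent kinases. It ran from 23.4 to 79.0 CPM in the controls (median 34.5) and from 132 to 262 CPM in the gRNA libraries (median 198), without overlap. Its log2 fold change was 2.13 (SE 0.245, edgeR adjusted p = 7.7e-06). Cdkn2d, another inhibitor of Cdk4 and Cdk6 outside the 37 genes, had 25.2 ± 3.22 and 23.3 ± 2.46 CPM and was not called (log2 fold change -0.11, adjusted p = 0.44). Of the CPM per kb summed over the 5 inhibitors tested, Cdkn1a held 38.0 ± 11.6% in controls and 76.5 ± 4.80% with the guide, and Cdkn2d 36.4 ± 7.75% and 14.6 ± 2.75%.

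Rb1, the retinoblastoma gene, and E2f4, an E2F member known mainly as a repressor, were measured well and not called. Rb1 had 12.8 ± 2.42 and 11.6 ± 1.47 CPM, with a log2 fold change of -0.15 (95% interval -0.41 to 0.12). E2f4 had 27.8 ± 2.82 and 27.4 ± 2.36 CPM, with a log2 fold change of -0.02 (95% interval -0.18 to 0.15). The activator E2f1 was too low to judge, with 35 reads over all controls and 50 over all gRNA libraries.

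**Figure D3:**
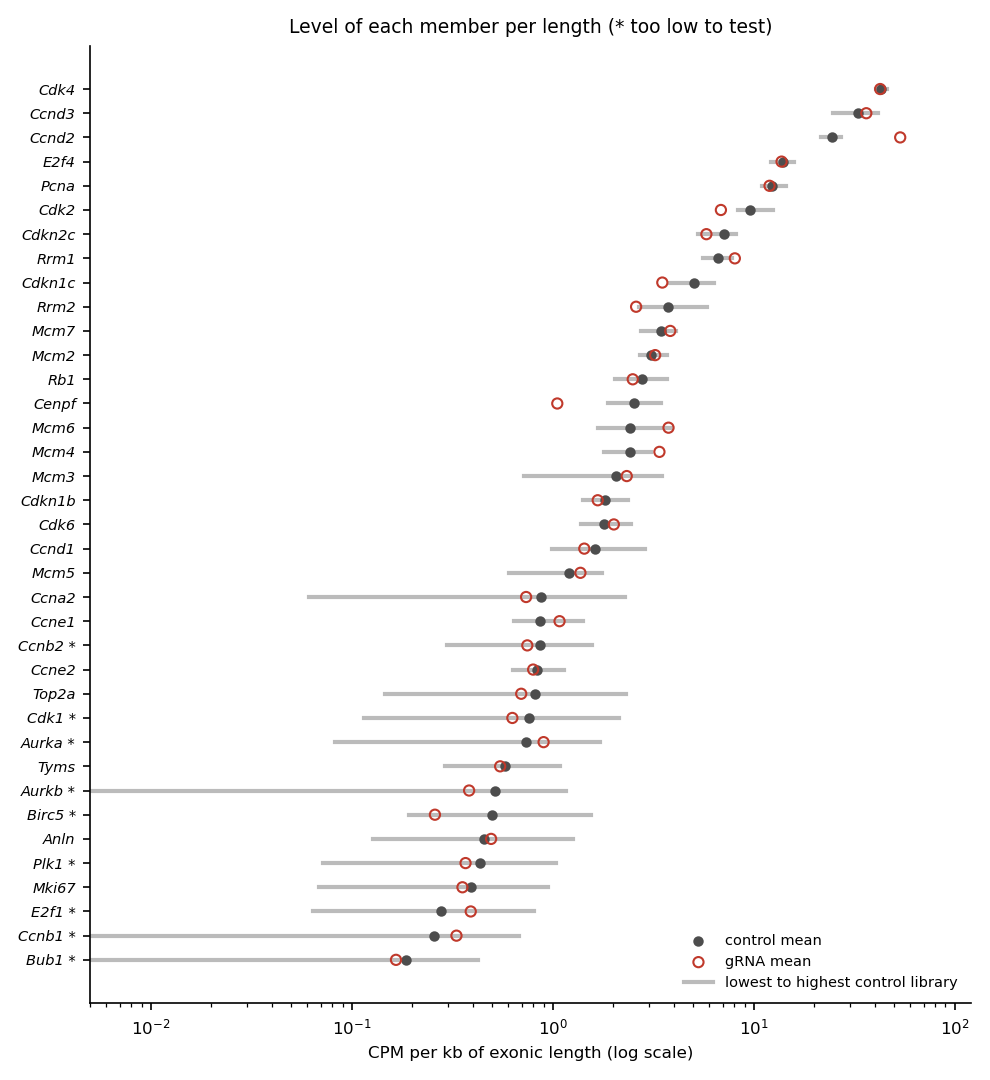
Level of each of the 37 members in CPM per kb of exon on a log axis, ordered by the control mean, with control means as filled points, gRNA means as open circles and grey lines from the lowest to the highest control library. The scale runs from Cdk4 at 43.0 to Bub1 at 0.187 CPM per kb, and the lines of Aurkb, Ccnb1 and Bub1 leave the left edge because a control library had no read.

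The order of levels per length in the control libraries did not follow one role. Cdk4 (43.0 CPM per kb), Ccnd3 (33.2) and Ccnd2 (24.6) were followed by E2f4 (13.96), Pcna (12.3) and Cdk2 (9.63). Other genes of the start of the cycle stood lower, among them Cdk6 and Ccnd1. The lowest levels were those of Plk1 (0.433 CPM per kb), Mki67 (0.392), E2f1 (0.277), Ccnb1 (0.255) and Bub1 (0.187).

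Of the 10 replication genes, all tested, 2 rose and 8 were not called. Mcm4, a subunit of the Mcm2 to Mcm7 helicase (chr16:15623897-15637400, minus strand), ran from 6.46 to 11.1 CPM in the controls (median 8.77) and from 9.91 to 15.2 CPM in the gRNA libraries (median 10.3). The ranges overlapped, with 3 of 7 gRNA libraries above all controls and the other 4 inside the control range, though all 7 lay above the control median. Its mean rose from 8.71 ± 1.47 to 12.2 ± 2.48 CPM, a log2 fold change of 0.48 (SE 0.142, 95% interval 0.18 to 0.78, edgeR adjusted p = 0.017). Within the 4 libraries numbered 7 to 10 alone the value was 0.46 with an adjusted p of 0.15, and with a macrophage covariate it was 0.29 with an adjusted p of 0.11.

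The other subunits of the helicase were not called. Mcm6 ran from 4.87 to 11.4 CPM in the controls (median 5.83) and from 7.18 to 17.2 CPM in the gRNA libraries (median 8.47). These ranges overlap, and the log2 fold change of 0.62 (95% interval 0.07 to 1.17) had an adjusted p of 0.087. It passed the threshold without control replicate 5 (0.77, adjusted p = 0.035), in the 10 libraries outside numbers 7 to 10 (0.59, adjusted p = 0.024), in those 4 libraries (0.63, adjusted p = 0.046), with a term for them (0.62, adjusted p = 0.0010), with the replicate block (0.63, adjusted p = 0.0018) and with library totals (0.76, adjusted p = 0.0499). With the macrophage covariate described below it was 0.11 (adjusted p = 0.65). The log2 fold changes of Mcm2, Mcm3, Mcm5 and Mcm7 lay between 0.06 and 0.18, with adjusted p-values from 0.49 to 0.87. Mcm2 had 10.4 ± 1.11 and 10.9 ± 3.59 CPM, Mcm3 5.95 ± 3.16 and 6.74 ± 2.83, Mcm5 4.11 ± 1.64 and 4.70 ± 2.27, and Mcm7 8.24 ± 1.51 and 9.21 ± 2.16. The 6 subunits summed ran from 34.0 to 59.8 CPM in the controls (median 41.6) and from 36.5 to 73.1 CPM in the gRNA libraries (median 53.6), with overlap.

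Rrm1 encodes the large subunit of ribonucleotide reductase (chr7:102441695-102469771, plus strand). It ran from 22.3 to 31.3 CPM in the controls (median 26.6) and from 28.5 to 35.4 CPM in the gRNA libraries (median 31.8). The ranges overlapped, and 6 of 7 gRNA libraries lay above all controls. Its mean rose from 26.5 ± 3.18 to 32.2 ± 2.12 CPM, a log2 fold change of 0.28 (SE 0.0798, 95% interval 0.12 to 0.45, edgeR adjusted p = 0.013). Within the 4 libraries numbered 7 to 10 the value was 0.15 (adjusted p = 0.56), in the 10 others 0.33 (adjusted p = 0.019), and with a macrophage covariate 0.21 (adjusted p = 0.073).

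The small subunits of the same enzyme were not called. Rrm2, the subunit used by cycling cells, ran from 5.84 to 12.8 CPM in the controls (median 7.41) and from 3.78 to 9.54 CPM in the gRNA libraries (median 4.89). The groups overlapped, with a log2 fold change of -0.52 (95% interval -0.99 to -0.04, adjusted p = 0.097). Without gRNA replicate 5 the value was -0.70 (adjusted p = 0.019), and in the 10 libraries outside numbers 7 to 10 it was -0.56 (adjusted p = 0.047). Rrm2b, the p53-inducible small subunit, is outside the 37 genes and had a log2 fold change of -0.01 (adjusted p = 0.96). Rrm2 made up 50.4 ± 7.59% of the 2 small subunits per kb in controls and 41.3 ± 8.03% with the guide, with overlapping ranges. Pcna, the sliding clamp of the replication fork, had means of 15.5 and 15.1 CPM (log2 fold change -0.03, 95% interval -0.25 to 0.18). Tyms, thymidylate synthase, had 2.21 ± 0.989 and 2.08 ± 1.05 CPM (log2 fold change -0.09).

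Of the 12 mitosis genes, 4 could be tested and 1 fell. Cenpf encodes centromere protein F, a large protein of the nuclear matrix and kinetochore (chr1:189640614-189688086, minus strand, exonic length 11122 bp). It ran from 21.0 to 38.4 CPM in the controls (median 26.2) and from 7.46 to 14.996 CPM in the gRNA libraries (median 13.2). Every gRNA library lay below every control. Its mean fell from 28.2 ± 5.76 to 11.7 ± 3.02 CPM, a log2 fold change of -1.28 (SE 0.166, 95% interval -1.63 to -0.93, edgeR adjusted p = 2.5e-05). The value was -1.41 in the 10 libraries outside numbers 7 to 10 and -1.05 within those 4, with adjusted p-values of 2.0e-04 and 0.0022.

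The other testable mitosis genes were low and variable. Mki67, which encodes the Ki-67 proliferation antigen, had 3.95 ± 3.09 CPM in controls and 3.58 ± 2.40 CPM with the guide (log2 fold change -0.15, 95% interval -1.15 to 0.86). Top2a, the topoisomerase of chromosome condensation, had 4.27 ± 4.21 and 3.63 ± 2.75 CPM (log2 fold change -0.24, 95% interval -1.45 to 0.98). Anln, the cytokinesis scaffold anillin, had 2.46 ± 2.46 and 2.68 ± 1.60 CPM (log2 fold change 0.10, 95% interval -0.98 to 1.18). These intervals are far wider than that of Cdk4, so changes up to the ends of each interval, in either direction, are not excluded.

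The remaining 9 members, 8 mitosis genes and E2f1, were too low to judge. Their largest count in any library was 43 reads, and 3 of the 9 had a library without a read. Over all controls and all gRNA libraries, Cdk1 (the mitotic kinase) had 105 and 93 reads, and its partners Ccnb1 and Ccnb2 (B cyclins) had 28 and 43, and 67 and 62. The mitotic kinases Aurka, Aurkb and Plk1 had 72 and 92, 50 and 40, and 47 and 43 reads. Birc5 (survivin, of the chromosomal passenger complex) had 85 and 46 reads, and Bub1 (of the spindle checkpoint) had 39 and 38. The main fit did not test these genes, so a difference between the groups cannot be judged for them.

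The summed level of the mitosis genes other than Cenpf was highest in the libraries numbered 7 to 10 of both groups. Summed over the 11 mitosis genes other than Cenpf, the 4 libraries numbered 7 to 10 had 33.7 and 53.5 CPM (controls) and 34.2 and 37.5 CPM (gRNA). The other controls ran from 6.99 to 22.7 CPM (median 9.49), and the other gRNA libraries from 9.16 to 14.4 CPM (median 11.7). All 4 lay above all 10 others, and the ratio of the medians was 3.63. With Cenpf included, the sum ran from 48.6 to 83.6 CPM in the 4 libraries and from 16.7 to 54.2 CPM in the others. These ranges overlapped, with a ratio of medians of 1.96, though the 4 libraries still lay above the rest of their own group. Mki67 ran from 5.86 to 9.54 CPM in the 4 libraries and from 0.690 to 4.87 CPM in the others, and Top2a from 6.96 to 12.1 and from 0.767 to 5.03 CPM. By single gene, 8 of the 12 mitosis genes were higher in these libraries than in the rest of their own group. Ccnb1, Ccnb2, Cdk1 and Cenpf were not. The same order held for 6.55% of all 11170 tested genes, for 12 of the 37 members and for 6 of the 28 tested members. Cenpf had 13.5 to 30.0 CPM in the 4 libraries and 7.46 to 38.4 CPM in the others.

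Of the 37 members, 8 lay higher in all 4 of these libraries than in the 10 others. They were Mki67, Top2a, Anln, Aurka, Birc5 and Bub1 of the mitosis genes, Ccnd1 and Mcm3. Of these, 5 are among the 28 tested members, and 4.58% of all tested genes had the same order. The 4 libraries were known to stand apart over all genes, and the order is given as a description.

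**Figure D4:**
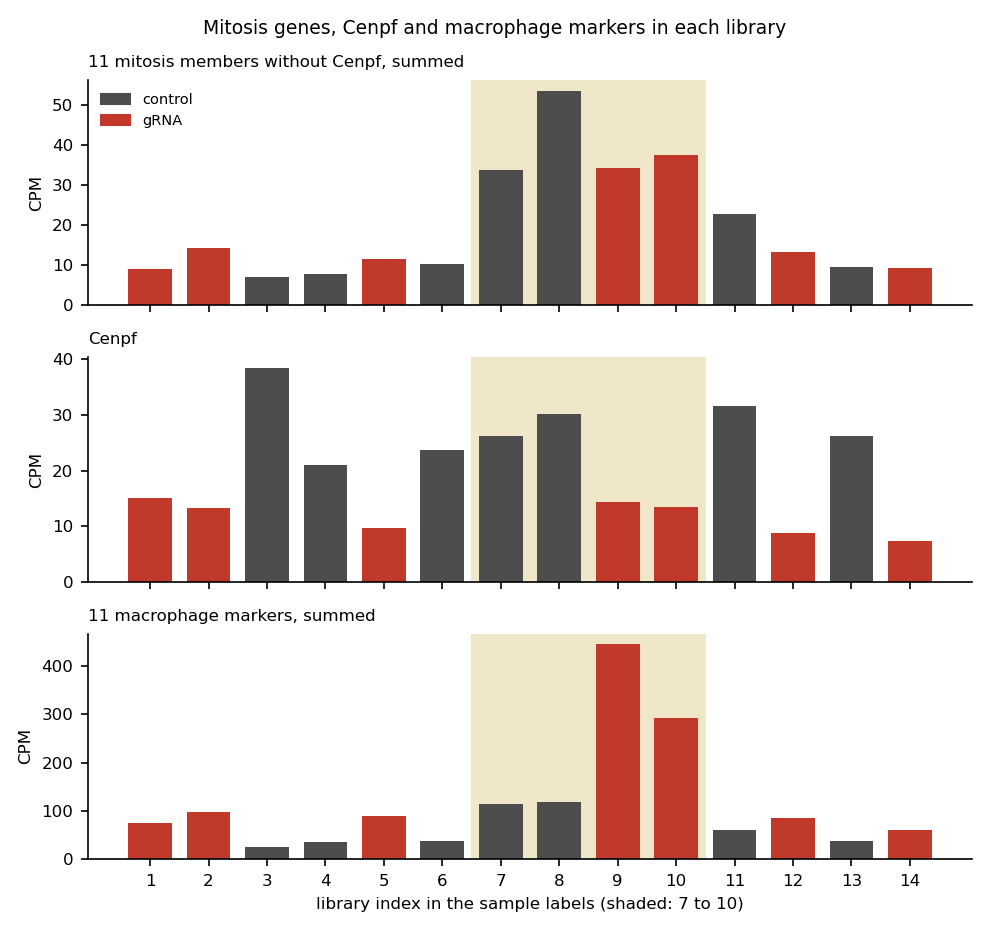
Bars give the summed CPM of the 11 mitosis genes without Cenpf (top) and the CPM of Cenpf (middle) in each library. Libraries are numbered in the order of the samples, controls in grey and gRNA libraries in red, numbers 7 to 10 shaded. Libraries 7 to 10 of both groups have the highest sums (33.7 to 53.5 CPM), while Cenpf is lower in every gRNA library than in every control. The bottom panel gives the summed CPM of 11 macrophage markers.

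The summed markers of 4 other cell types (macrophages, fibroblasts, endothelium and lymphocytes) were also higher in the 4 libraries. The sums for pericytes and smooth muscle and for erythroid cells were not. The pericyte and smooth muscle sum had a control median of 1207 CPM. Its largest parts were Acta2 and Abcc9, with control medians of 708 and 367 CPM. Single genes of that list were not compared by library number. The summed macrophage markers ran from 113 to 445 CPM there and from 24.3 to 98.2 CPM in the others. The fibroblast markers ran from 626 to 1289 CPM and from 170 to 394 CPM, and the endothelial markers from 745 to 1000 CPM and from 285 to 642 CPM. The cardiomyocyte markers summed to 86714 to 112675 CPM there and to 94767 to 129160 CPM in the others, and all 10 passed the filter. The lymphocyte markers were near 0, with 3.41 to 7.12 CPM and 0.678 to 2.91 CPM. The pericyte and smooth muscle markers ran from 1257 to 1546 CPM in the 4 libraries and from 1007 to 2276 CPM in the others, and the erythroid genes from 6.28 to 20.4 and from 0.862 to 72.9 CPM. Between the groups, the macrophage sum had a median of 37.4 CPM in the controls (24.3 to 118) and 89.1 CPM in the gRNA libraries (61.1 to 445), with 3 of 10 tested macrophage markers higher and 0 lower. None of 9 fibroblast or 10 endothelial markers was called, and 3 of 10 pericyte and smooth muscle markers were higher and 1 lower. Of the 10 cardiomyocyte markers, 7 were lower, the targeted Ryr2 among them. Of all tested genes 14.5% were called higher and 13.7% lower. Among abundant genes, with a mean above 8 on the log2 CPM scale, 58.8% were called in either direction. Their median log2 fold change was -0.19. Of 7 erythroid genes, Hba-a1, Hba-a2, Hbb-b1 and Hbb-b2 were at 0 in all libraries. What part RNA from other cells had in the levels of the members was not tested.

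With the mean log2(CPM + 1) of the tested macrophage markers as a covariate, 1 member (Ccnd2) was called higher and 9 lower, of 28 tested. Of all 11170 tested genes, 1656 were called higher and 1640 lower with this covariate. Cenpf stood at -1.39 and Cdk2 at -0.54 in that fit, and the 7 further lower calls were Mki67, Top2a, Anln, Ccna2, Ccnd1, Cdkn1c and Rrm2. Mcm4 and Rrm1 were no longer called, and their values of 0.29 and 0.21 were smaller than 0.48 and 0.28 without the covariate. The covariate differs between the groups, so its effect and that of the guide are only partly separable.

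Other genes of the same pathways were read from lists of known roles, also drawn up with earlier results of these data known. Of 218 listed genes in the table, 156 were tested, and 17 were higher, 13 lower and 126 not called. The called share was 19.2%, beside 28.2% of all tested genes, and the median log2 fold change was 0.03. A scaling by library totals alone gave 38 higher and 7 lower. Of the genes named below, Anapc2, Ncaph2 and Smc1a lost their calls both in the 10 libraries outside numbers 7 to 10 and in those 4. In the 4 libraries alone, which leave fewer samples, the calls of further genes were lost. These were Cks1b, Ccnh, Rfc2, Rfc4, Dhodh, Spc24, Pttg1, Anapc7, Cdc27, Rhoa, Mapk14, Erbb2 and Igf1r. Gmnn lost its call with the macrophage covariate.

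Among 14 tested cyclins, kinases and regulators outside the members, 1 rose and 2 fell. Cks1b, which encodes a small subunit bound by Cdk complexes, rose from 4.91 ± 1.03 to 8.02 ± 1.58 CPM (log2 fold change 0.72, edgeR adjusted p = 0.0020). Ccng1, cyclin G1, a p53 target, fell by 0.26 on the log2 scale (adjusted p = 0.011), and Ccnh, the cyclin of the Cdk-activating kinase, fell by 0.30 (adjusted p = 0.034). The Ccnh call was lost in 12 of 25 alternatives, among them 8 of 14 that left out 1 library (control 2, 3, 6 or 7 or gRNA 1, 4, 5 or 6, adjusted p = 0.050 to 0.075), and the Ccng1 call with library totals and with the macrophage covariate. Of 13 E2F, pocket protein and DREAM genes only the repressor E2f6 was called, falling from 158 ± 10.97 to 128 ± 7.97 CPM without overlap (log2 fold change -0.30, adjusted p = 7.0e-04).

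Of 38 tested genes of origin licensing and the replication fork, 4 rose and 3 fell. Gmnn, which encodes the licensing inhibitor geminin, fell from 32.1 ± 6.15 to 23.1 ± 3.81 CPM (log2 fold change -0.47, edgeR adjusted p = 0.010). Within the clamp loader, Rfc2 rose by 0.27 on the log2 scale (adjusted p = 0.0061) while Rfc4 changed by -0.46 (adjusted p = 0.0085). Of 17 genes of nucleotide supply, 3 rose and 2 fell. Dut, the dUTPase that keeps uracil out of DNA, fell from 44.6 ± 5.06 to 28.9 ± 4.12 CPM (log2 fold change -0.62, adjusted p = 1.2e-04). Impdh1, of guanine nucleotide synthesis, rose from 31.6 ± 3.65 to 46.8 ± 3.22 CPM without overlap (log2 fold change 0.57, adjusted p = 3.5e-05). Dhodh, of pyrimidine synthesis, had a log2 fold change of -0.45 (adjusted p = 0.0030).

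Of 47 spindle, kinetochore and checkpoint genes, 28 were too low to test, and of the 19 tested 0 rose and 2 fell. These were Spc24, a subunit of the Ndc80 complex (log2 fold change -0.72, edgeR adjusted p = 0.014), and Pttg1, securin (-0.18, adjusted p = 0.048). The Pttg1 call was lost in 16 of 25 alternatives, among them 11 of 14 that left out 1 library (all but control 4, gRNA 3 and gRNA 7, adjusted p = 0.056 to 0.12). Of 14 tested genes of the anaphase-promoting complex, 3 rose and 1 fell, among them Anapc7 (0.33, adjusted p = 0.0010), Cdc27 (0.38, adjusted p = 0.0024) and Anapc2 (0.24, adjusted p = 0.0053), which rose. Of 15 condensin and cohesin genes, Ncaph2 (0.18, adjusted p = 0.019) and Smc1a (0.16, adjusted p = 0.043) rose. The Smc1a call was lost in 13 of 25 alternatives, among them 8 of 14 that left out 1 library (control 1, 2, 4 or 7 or gRNA 1, 2, 4 or 6, adjusted p = 0.060 to 0.10). Of 4 tested cytokinesis genes, Rhoa rose (0.23, adjusted p = 0.0078).

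Of 20 genes known as regulators of cardiomyocyte cycling, 2 rose and 2 fell. Mapk14, the p38 alpha kinase, fell from 125 ± 8.52 to 98.0 ± 8.95 CPM without overlap (log2 fold change -0.36, edgeR adjusted p = 4.7e-04). Erbb2, the coreceptor of neuregulin, rose from 20.9 ± 2.33 to 26.6 ± 2.89 CPM (0.35, adjusted p = 0.0078), and Igf1r, the receptor of insulin-like growth factors, from 15.1 ± 2.38 to 21.0 ± 3.22 CPM (0.46, adjusted p = 0.0087).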

How the data were processed

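Reads were aligned with STAR and counted with featureCounts on build mm10, per the submitters' processing notes, with versions, annotation and strand setting not stated there. The deposited table holds unnormalised integer read counts for each gene, with each gene's exons and exonic length, per the file headers. A second deposited table, of the authors' own DESeq2 comparison, holds a mean normalised signal, log2 fold changes with their standard errors, a score (the fold change divided by its error), p-values and adjusted p-values, per the file headers. It was used only for a comparison of values, and the authors' deposited table gives Ccnd2 a log2 fold change of 1.12.

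Counts of the 14 libraries (7 per group) were tested with the two-sided quasi-likelihood method of edgeR 4.0.16 under R 4.3.3, with the filterByExpr filter (minimum count 10), TMM scaling and no covariate. P-values were Benjamini-Hochberg adjusted over the 11170 genes that passed, and calls were made at an adjusted p under 0.05. CPM used TMM-scaled totals, and levels between genes are CPM per kb of exonic length. The fit was tested on simulated data. No row lacked a gene name and 0 columns were unmapped. No 2 replicates of a group differed by as little as sampling noise (chi-square per degree of freedom 4.58 to 26.9).

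Replicate numbers were not taken as pairs: same-numbered libraries correlated at 0.039 to 0.531 in their deviations from the group means, and the labels name no shared source. Alternatives were other scalings (median of ratios, library totals), DESeq2 1.42.0, limma-voom (limma 3.58.1), other filters, the replicate block, terms or subsets for the 4 libraries numbered 7 to 10, a macrophage covariate and leaving out each library. Every member is named with its values. Called members, Ryr2 and Cdkn1a are given in full, and of each other pathway list up to 3 called genes with the smallest p are named. Members and lists were chosen with earlier results of these data known. Reads carry no molecular identifiers, so counting limits cover counting error only.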

Additional observations from a re-analysis of the deposited data

Results flagged for a closer look

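Of 76 sets of 7 libraries (each of the 37 members and Ryr2, in each group) checked for a library far from the other 6, 2 stood out, and chance flags about 5% of such sets. Birc5, survivin, was at 5.27 CPM (37 reads) in control replicate 5, while the other 6 controls lay between 0.658 and 2.10 CPM. That library is among those numbered 7 to 10. Cdkn2c was at 5.87 CPM (34 reads) in control replicate 7, while the other 6 controls lay between 7.73 and 9.05 CPM.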

How the results depend on the processing

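All 5 called members stayed called under median-of-ratios scaling, library totals, DESeq2, limma-voom, no filter, a filter of CPM 1 in 7 libraries, the replicate block and each leave-one-out fit. Over all alternatives Ccnd2 ranged from 0.91 to 1.25 and Cenpf from -1.41 to -1.05 (log2). Leaving out one library at a time gave 3 to 4 members higher and 2 to 3 lower, 14 to 17 pathway genes higher and 8 to 15 lower, 1433 to 1664 genes higher and 1284 to 1527 lower, and Ryr2 from -1.18 to -1.05. The 8 lower pathway genes came from leaving out control 3, 6 or 7 or gRNA 6.

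Members called lower numbered 4 with the replicate block, with a term for libraries 7 to 10 and in the 10 other libraries (Cenpf, Cdk2, Cdkn1c and Rrm2), 1 in the 4 libraries alone and 9 with the macrophage covariate, where 1 was higher. The block gave 4 members higher (Mcm6 added), and 1922 genes higher and 1848 lower. Over all genes the covariate gave 1656 higher and 1640 lower, the term 1891 and 1761, and the 10 libraries 1379 and 1284. The samples share only a number: 1 of 7 controls (number 7) correlated best with its own number. In the 4 libraries alone 689 genes were higher and 777 lower, among them 2 and 4 pathway genes. Library totals gave 3064 and 852, with 38 and 7 pathway genes, and limma-voom gave 8 pathway genes lower. Anln turned to -0.85 (adjusted p = 0.036) with the covariate. The causes of these shifts were not tested, and a fit of 4 libraries also has fewer samples. The 9 members that the filter left out had at most 43 reads in a library, and without the filter edgeR called 0 of them.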
